A study of Mus musculus with 6 samples.

Results

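The genes described here are 10 cytosolic heat shock genes of the mouse prostate, the rows of the deposited expression table whose symbols, written there in capitals, are HSPA1A, HSPA1B, HSPA8, HSP90AA1, HSP90AB1, HSPB1, HSPH1, DNAJA1, DNAJB1 and HSF1. They were chosen by name as inducible and constitutive cytosolic heat shock genes, and are 10 of the 24908 genes listed. Levels are in FPKM, which divide the fragments of a gene by its transcript length and by the depth of its library. A filter on low values (1 FPKM or more on average across the libraries) left 12361 genes for comparison, and all 10 passed it, the lowest of them with a mean of 17.5 FPKM.

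Bulk RNA-seq was performed on the anterior (AP), dorsolateral (DLP) and ventral (VP) lobes of the prostate of 1 wild-type mouse (WT) and 1 heterozygous Hi-MYC mouse (MYC), which gave 6 libraries with 1 in each group. The study asked how MYC overexpression reprograms transcription in each lobe. Both mice were males of the FVB strain, 12 weeks old, and the WT mouse was a littermate, with both fed a purified diet from weaning. The MYC mouse carries human c-MYC under the ARR2Pb promoter, a composite of probasin promoter elements that is active in the androgen-responsive epithelium of the prostate. The other cells of each lobe are therefore not meant to carry the active transgene. The paper nonetheless detected it in some basal, hematopoietic and endothelial cells of the MYC VP, and describes this as potentially leaky. The paper also reports an AP mostly unaffected by MYC, with transgene expression and premalignant lesions most prevalent in the VP. The MYC to WT ratios of the 3 lobes thus do not stand for equal levels of the transgene. Every lobe of both mice was minced and digested with enzymes at body temperature before RNA was taken from the suspended cells. All 6 libraries therefore share this handling and none is from intact tissue. The cells taken for bulk RNA equalled in number those of the single-cell aliquot of the same suspension, and are not stated to be equal across libraries. As the 3 libraries of a genotype come from the same animal, genotype and mouse cannot be told apart, no p-value was computed, and the differences below are described by their size. In such bulk samples, fewer cells of a type and less RNA per cell cannot be told apart either.

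The libraries held an estimated 25.5 M (WT AP) to 50.2 M (MYC AP) mapped reads. Luminal epithelial markers, 7 genes with Krt8 and Krt18 among them, summed to between 2192 and 4222 FPKM in every library. Pbsn, the prostate secretory gene whose promoter the transgene borrows, was at 3597, 14040 and 2055 FPKM in WT AP, DLP and VP, and at 3084, 267.3 and 1.902 FPKM in MYC AP, DLP and VP. The library labelled MYC VP thus lacked most of a defining prostate secretory transcript. Secretory genes of the seminal vesicle, 5 in number, summed to 513.3 FPKM in MYC AP, and to at most 8.993 FPKM in the other libraries. Among them Svs4 and Svs5 were at 292.5 and 212.0 FPKM in MYC AP and at 0 FPKM in WT AP. The part of seminal vesicle cells in the MYC AP levels of the heat shock genes was not tested.

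Heat shock proteins of the cytosol are chaperones that hold, fold and release other proteins. The HSP70s bind exposed hydrophobic stretches in a cycle driven by ATP, in which J proteins deliver clients and start hydrolysis, and HSP110 proteins exchange the nucleotide so that the client is let go. The HSP90s act later in folding, on clients that include kinases and steroid hormone receptors such as the androgen receptor, and the small heat shock proteins hold unfolding proteins without using ATP. Heat shock factor 1 is the transcription factor that, freed from chaperones in stressed cells, binds inverted repeats of a short unit ahead of the inducible genes and switches them on, while the constitutive genes are read in unstressed cells too.

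The promoters bear on which of the members carry such repeats close to their start. RefSeq windows on GRCm38.p6, the assembly also called mm10 that the processing notes name, run from 250 bases before to 50 bases after each start site, and were found for 6 of the 10 genes, in 10 windows. The search, on both strands, was for 2 heat shock units facing each other, written GAANNTTC or TTCNNGAA. These letters occur in 15.1% of all 32851 windows of the table, and in a window of 5 of the 6 genes. The stretches below surround the matches, whose letters are in capitals, and Dnajb1 is shown for contrast as the 60 bases ahead of its start, without a match.
Hspa1a, chr17:34972233-34972280, minus strand: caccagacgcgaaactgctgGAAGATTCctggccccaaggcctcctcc
Hspa1b, chr17:34959315-34959362, minus strand: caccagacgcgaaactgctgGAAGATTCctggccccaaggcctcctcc
Hsph1, chr5:149636342-149636389, minus strand: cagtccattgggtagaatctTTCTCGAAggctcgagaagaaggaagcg
Dnaja1, chr4:40722324-40722371, plus strand: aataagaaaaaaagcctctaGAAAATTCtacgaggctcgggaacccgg
Hspb1, chr5:135887782-135887849, plus strand: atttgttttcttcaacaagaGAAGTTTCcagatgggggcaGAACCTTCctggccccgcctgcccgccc
Dnajb1, chr8:83608115-83608174, plus strand: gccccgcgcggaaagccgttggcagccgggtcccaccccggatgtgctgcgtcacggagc

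The printed stretch is letter for letter the same in Hspa1a and Hspa1b, and over the whole window of 300 bases these genes differ at 4 bases (98.7% identical). Over the whole window Hsph1 holds 3 facing pairs, only the one ahead of its start being printed, Hspb1 holds 2, and Hspa1a, Hspa1b and Dnaja1 hold 1 each. The windows of Hsph1 also hold 3 heat shock units in a row, which 0.6% of all windows do, and the E-box CACGTG, the letters that MYC is known to bind, which 7.2% of all windows hold. No other member's window holds CACGTG, and none holds TATAAA, found in 13.6% of all windows. CCAAT, found in 37.4% of all windows, is present in windows of Hspa1a, Hspa1b, Hsph1, Dnaja1 and Dnajb1. A match of letters is a description of the sequence, not evidence that a factor is bound there.

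Hspa1a (17:34969359-34972156) and Hspa1b (17:34956429-34959238) are the heat-inducible HSP70 genes and lie 10120 bases apart on the minus strand of chromosome 17. Their coding sequences are 99.4% identical, and 53.2% of the 75-base stretches of the Hspa1a transcript, the length of a read, occur unchanged in Hspa1b. How reads from the shared stretches were divided between them is not stated, so that each single value is uncertain and their sum is the safer quantity. The Hspa1b to Hspa1a ratio of FPKM was between 1.16 and 1.19 in all 6 libraries. None of the other 8 members shares a 75-base stretch with another protein-coding gene, whereas pseudogenes were not checked.

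The heat-inducible pair was among the most abundant transcripts of the suspensions. Hspa1a stood at 1799, 1407 and 1021 FPKM in WT AP, DLP and VP, and at 2510, 1394 and 599.8 FPKM in MYC AP, DLP and VP. Hspa1b stood at 2142, 1667 and 1199 FPKM in WT AP, DLP and VP, and at 2916, 1664 and 711.1 FPKM in MYC AP, DLP and VP. Hspa1b thus ranked between 8 and 107 among all genes by FPKM and Hspa1a between 12 and 124, the highest places in MYC AP and the lowest in MYC VP. The 10 genes together made up 2.58%, 2.02% and 1.77% of all FPKM in WT AP, DLP and VP, and 3.30%, 2.01% and 1.49% in MYC AP, DLP and VP.

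Hspa8 (9:40801276-40805202), the constitutive HSP70 that also uncoats clathrin vesicles, was at 1554, 1605 and 1477 FPKM in WT AP, DLP and VP, and at 1871, 1594 and 1493 FPKM in MYC AP, DLP and VP. Hsp90ab1 (17:45567778-45573261), the constitutive HSP90, was at 1198, 1238 and 1208 FPKM in the WT lobes in the same order, and at 1267, 1286 and 1683 FPKM in the MYC lobes. Hspb1 (5:135887919-135889563), the small heat shock protein also named HSP27 that caps actin filaments, was at 1550, 1633 and 1331 FPKM in the WT lobes and at 2088, 1941 and 1598 FPKM in the MYC lobes. These were the steadiest of the abundant members, their highest library exceeding their lowest by 1.27-fold, 1.40-fold and 1.57-fold, against 4.18-fold for Hspa1a and 4.10-fold for Hspa1b.

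Hsp90aa1 (12:110691036-110696395), the stress-inducible HSP90, was at 654.9, 599.9 and 612.6 FPKM in the WT lobes and at 827.8, 471.0 and 564.3 FPKM in the MYC lobes, below Hsp90ab1 in every library. Of the J proteins, Dnajb1 (8:83608175-83612653), the stress-inducible one also named HSP40, was at 262.6, 227.7 and 145.8 FPKM in the WT lobes and at 468.3, 324.9 and 206.4 FPKM in the MYC lobes. Dnaja1 (4:40722468-40734965), a J protein made without stress too, was at 130.0, 110.7 and 95.35 FPKM in the WT lobes and at 183.7, 124.6 and 130.3 FPKM in the MYC lobes. Dnajb1 exceeded Dnaja1 in all 6 libraries, by 1.53-fold to 2.61-fold.

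Hsph1 (5:149616843-149636498), the inducible HSP110 that serves as exchange factor of HSP70, was at 327.1, 247.0 and 149.8 FPKM in the WT lobes and at 415.5, 206.4 and 181.8 FPKM in the MYC lobes. Hsf1 (15:76477362-76501155) was far below its target genes, at 17.53, 17.24 and 16.49 FPKM in the WT lobes and at 14.92, 18.80 and 20.05 FPKM in the MYC lobes. It was the lowest of the 10 in every library. Behind Hsf1 stood an estimated 938 to 1733 reads per library, while every other member had at least 15140 reads in every library.

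**Figure D1:**
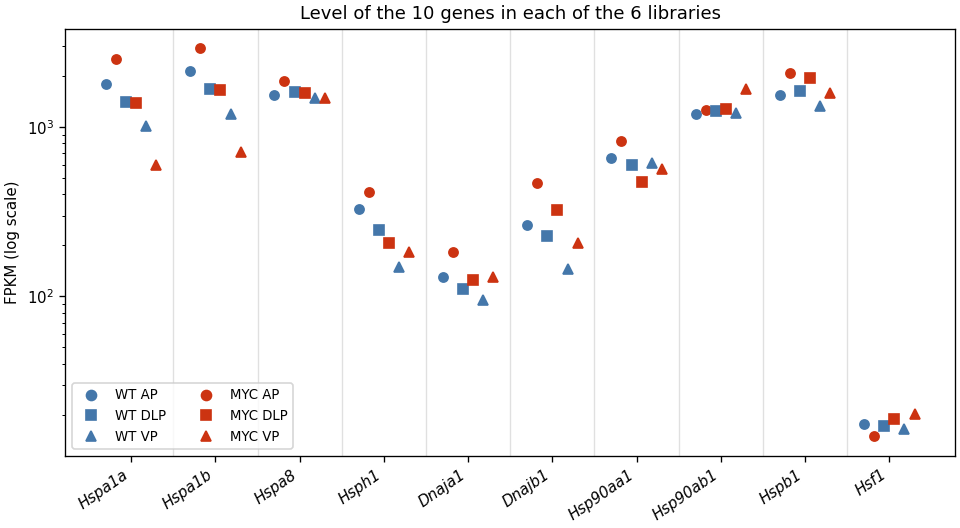
FPKM on a log scale (vertical axis) of the 10 cytosolic heat shock genes (horizontal axis) in each of the 6 libraries, with circles for AP, squares for DLP, triangles for VP, blue for WT and red for MYC, and 1 point for each library. Hspa1a and Hspa1b spread from 2916 FPKM (Hspa1b in MYC AP) to 599.8 FPKM (Hspa1a in MYC VP), whereas Hspa8 stays between 1477 and 1871 FPKM.

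The order of the members by FPKM was not the same in every library. Hspa1b led in WT AP, MYC AP and WT DLP, Hspb1 led in MYC DLP, Hspa8 led in WT VP and Hsp90ab1 led in MYC VP. In MYC VP the inducible HSP70 genes stood behind Hsp90ab1, Hspb1 and Hspa8. In MYC AP they stood ahead of all the others. Without replicates, no spread is at hand to say which neighbours in these orders differ.

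MYC was compared with WT in each lobe as the log2 ratio of FPKM + 1, with a 2-fold threshold. In AP, 9 of the 10 members were higher in MYC and Hsf1 was lower, in a lobe where 66.4% of all genes compared were higher, with a median log2 ratio of 0.39 against 0.13 over all genes. None reached 2-fold in either direction, a size of change seen upward in 2.05% and downward in 0.599% of all genes compared. Dnajb1 came nearest, with a log2 ratio of 0.83. Under size factors the median over all genes compared in AP was 0.00 in place of 0.13, so that the AP ratios are best read against that shift, and Hsp90ab1 (0.08 as deposited) was then -0.07.

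In DLP the same genes divided evenly, 5 above and 5 below 0 beside 53.5% of all genes above 0, with a median of 0.03, equal to the 0.03 over all genes. None reached 2-fold, whereas 6.46% of all genes were higher and 3.39% lower by that much. Dnajb1 was again the highest at 0.51, and Hsp90aa1 (-0.35) and Hsph1 (-0.26) were the lowest. Hspa1a and Hspa8 each had a log2 ratio of -0.01. With rescaling to equal sums without the 20 highest genes, the ratios of Dnaja1, Hsp90ab1 and Hsf1 in DLP were 0.00, -0.12 and -0.04, and those of Dnajb1, Hspb1, Hsp90aa1 and Hsph1 kept their sign under every scaling tried.

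In VP 7 of the 10 were higher in MYC beside 53.2% of all genes, with a median of 0.27 against 0.04 over all genes, and again none reached 2-fold, whereas 6.88% of all genes were higher and 5.95% lower by that much. Hspa1a and Hspa1b were the lowest of the 10, with log2 ratios of -0.77 and -0.75, while Dnajb1 (0.50), Hsp90ab1 (0.48) and Dnaja1 (0.45) were the highest. Under equal sums of FPKM the median over all genes compared in VP was -0.15 and without the 20 highest genes it was -0.18, each shift being larger than 0.1. The median of the 10 was then 0.03 and 0.00, and 0.16 under size factors, so that it was near 0 under both equal-sum scalings, while its distance from the median over all genes was 0.22 as deposited and 0.20, 0.18 and 0.18 under the 3 other scalings. Without the 20 highest genes Hspa1a reached -1.04 and Hspa1b -1.02, past 2-fold, whereas Hspa8 was -0.26, Hspb1 -0.01, and Dnajb1, Hsp90ab1 and Dnaja1 kept positive values of 0.23, 0.20 and 0.18.

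**Figure D2:**
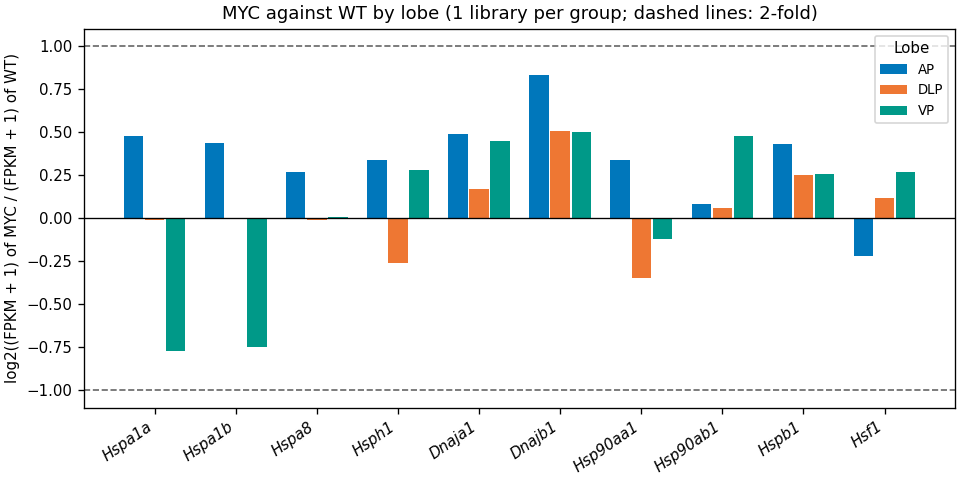
Log2 ratio of FPKM + 1 of MYC to WT (vertical axis) for each of the 10 genes (horizontal axis), with a bar for AP (blue), DLP (orange) and VP (green), each from 1 library per genotype, and dashed lines at 2-fold. No bar crosses the dashed lines, and the bars of Hspa1a and Hspa1b are above 0 in AP (0.48 and 0.44) and below 0 in VP (-0.77 and -0.75).

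Summed, Hspa1a and Hspa1b gave 3942 FPKM in WT AP and 5426 FPKM in MYC AP, a 1.38-fold higher level in MYC. In DLP the sum was 3074 FPKM in WT and 3058 FPKM in MYC, a ratio of 0.995. In VP it was 2219 FPKM in WT and 1311 FPKM in MYC, a ratio of 0.591. The sum was therefore higher in MYC in 1 lobe, near equal in another and lower in the remaining one, and its VP log2 ratio lay between -1.03 and -0.76 over the 4 scalings, its AP log2 ratio between 0.31 and 0.46.

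Dnajb1 had the highest log2 ratio of the 10 in all 3 lobes as deposited, at 0.83, 0.51 and 0.50, and under the 3 other scalings it was positive in each lobe but 0.34 to 0.46 in DLP and 0.23 to 0.39 in VP. Its ratio of estimated reads, MYC to WT and each divided by the depth of its library, was 1.78 in AP (95% exact interval 1.75 to 1.82), 1.43 in DLP and 1.42 in VP. For Hsf1, the member with the fewest reads, this depth-adjusted ratio was 0.851 in AP (0.785 to 0.924), 1.09 in DLP (1.02 to 1.17) and 1.22 in VP (1.14 to 1.30). These intervals cover the counting of reads alone, and the spread between mice was not measured.

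Differences between lobes were then compared within each genotype. In WT, 6 of the 10 members had the order AP, DLP, VP by FPKM, highest first, namely Hspa1a, Hspa1b, Hsph1, Dnaja1, Dnajb1 and Hsf1. For Hsf1 this order held under the deposited scaling alone, and for Dnaja1 under 3 of the 4 scalings. Of all genes compared, 28.3% had this order in WT. In MYC 6 of the 10 had it, against 27.4% of all genes, namely Hspa1a, Hspa1b, Hspa8, Hsph1, Dnajb1 and Hspb1. For Hspa8 in MYC it held under 3 of the 4 scalings. For Hspa1a, Hspa1b, Hsph1 and Dnajb1, the inducible genes of the HSP70 cycle, the order AP, DLP, VP held in both genotypes under all 4 scalings. As deposited, 14.9% of all genes had it in both. Hsp90aa1 instead had the order AP, VP, DLP in both genotypes under all 4.

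Between WT VP and WT AP, 1 of the 10 was at least 2-fold lower in VP and none was at least 2-fold higher, where 10.3% of all genes were lower and 7.89% higher by that much. That gene was Hsph1, with a log2 ratio of -1.12, followed by Dnajb1 and Hspa1b, both at -0.84, and Hspa1a at -0.82. Between WT VP and WT DLP none of the 10 reached 2-fold, with 6.29% of all genes lower in VP and 2.63% higher, and the lowest ratio was that of Hsph1 at -0.72. Between WT DLP and WT AP none reached 2-fold either, with 1.31% of all genes lower in DLP and 3.85% higher. Hspa8, Hsp90aa1, Hsp90ab1 and Hsf1 stayed within 0.13 on the log2 scale in each of these WT ratios.

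Between MYC VP and MYC AP, 4 of the 10 were at least 2-fold lower in VP and none was at least 2-fold higher, where 16.1% of all genes were lower and 8.98% higher. Those 4 were Hspa1a (log2 ratio -2.06, 4.18-fold higher in AP), Hspa1b (-2.03, 4.10-fold), Hsph1 (-1.19, 2.29-fold) and Dnajb1 (-1.18, 2.27-fold). Between MYC VP and MYC DLP, 2 of the 10 were at least 2-fold lower in VP, Hspa1a (-1.22) and Hspa1b (-1.23), and none was higher, with 14% of all genes lower and 3.54% higher. Between MYC DLP and MYC AP, 1 of the 10 was at least 2-fold lower in DLP, Hsph1 at -1.01, and none was higher, with 3.49% of all genes lower and 4.54% higher. Under equal sums of FPKM, with or without the 20 highest genes, that count was 4 in place of 1, beside 5.0% and 4.84% of all genes lower in DLP under these scalings.

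For the inducible pair the distance from AP to VP was 1.78-fold in WT and 4.14-fold in MYC by their sum. For Hsph1 it was 2.18-fold and 2.29-fold, and for Dnajb1 1.80-fold and 2.27-fold. Hsp90ab1 and Hsf1 went the other way in MYC, with VP above AP by log2 ratios of 0.41 and 0.40, against 0.01 and -0.08 in WT. Under equal sums of FPKM the median over all genes compared in MYC VP to AP was -0.31, against -0.02 as deposited, so that the MYC ratios between lobes depend on the scaling by that amount.

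**Figure D3:**
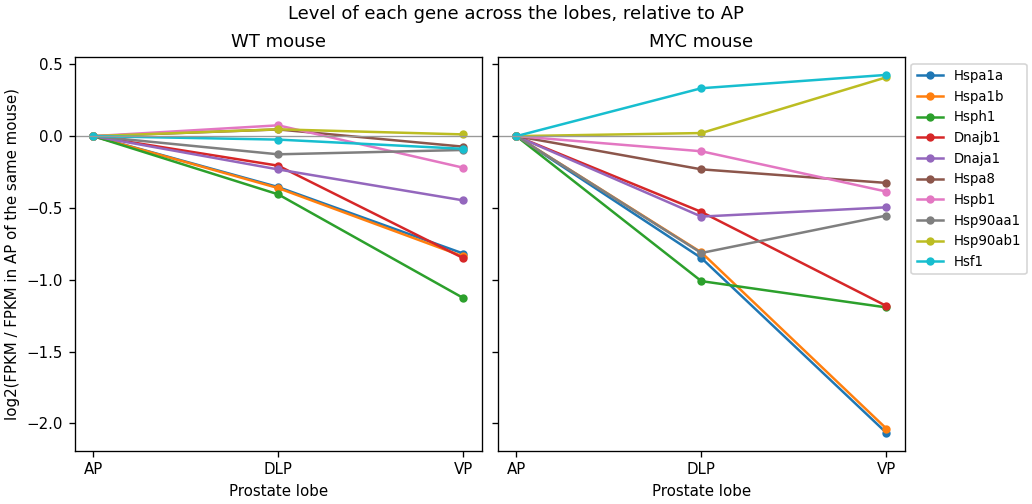
Log2 ratio of FPKM in each lobe to FPKM in AP of the same mouse (vertical axis) for AP, DLP and VP (horizontal axis), in the WT mouse (left) and the MYC mouse (right), with 1 line for each gene and 1 library for each point. The lines of Hspa1a and Hspa1b end at -2.06 and -2.03 in the MYC mouse, while those of Hsp90ab1 and Hsf1 end above 0.

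A ratio of 2 genes within a library does not depend on how libraries are scaled. The sum of Hspa1a and Hspa1b to Hspa8, inducible to constitutive HSP70, was 2.54, 1.91 and 1.5 in WT AP, DLP and VP, and 2.90, 1.92 and 0.878 in MYC AP, DLP and VP. It was lower in VP than in AP in both mice, and MYC VP was the only library in which Hspa8 exceeded the inducible pair. For the HSP90s, the ratio of inducible Hsp90aa1 to constitutive Hsp90ab1 was 0.547, 0.485 and 0.507 in the WT lobes and 0.653, 0.366 and 0.335 in the MYC lobes. Both ratios were thus higher in MYC than in WT in AP and lower in VP, and in DLP the HSP90 ratio was lower in MYC while the HSP70 ratio was near equal. The lower ratios in VP did not come from like changes. There the inducible HSP70 pair was at 0.591 of its WT level by the sum, and Hspa8 at 1.01. Of the HSP90s the constitutive Hsp90ab1 was 1.39-fold higher, and Hsp90aa1 was at 0.921.

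Summed, the HSP90s were at 1853, 1838 and 1821 FPKM in the WT lobes and at 2095, 1757 and 2247 FPKM in the MYC lobes. Inside the HSP70 cycle, the HSP70s Hspa1a, Hspa1b and Hspa8 exceeded the J proteins Dnaja1 and Dnajb1 by 14.0, 13.8 and 15.3 times in the WT lobes and by 11.2, 10.3 and 8.33 times in the MYC lobes, a lower ratio in MYC in each of the 3 lobes. Hsph1 to Hspa8 was 0.210, 0.154 and 0.101 in the WT lobes and 0.222, 0.129 and 0.122 in the MYC lobes. The HSP110 transcript was thus lower against Hspa8 in VP than in AP in both mice.

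**Figure D4:**
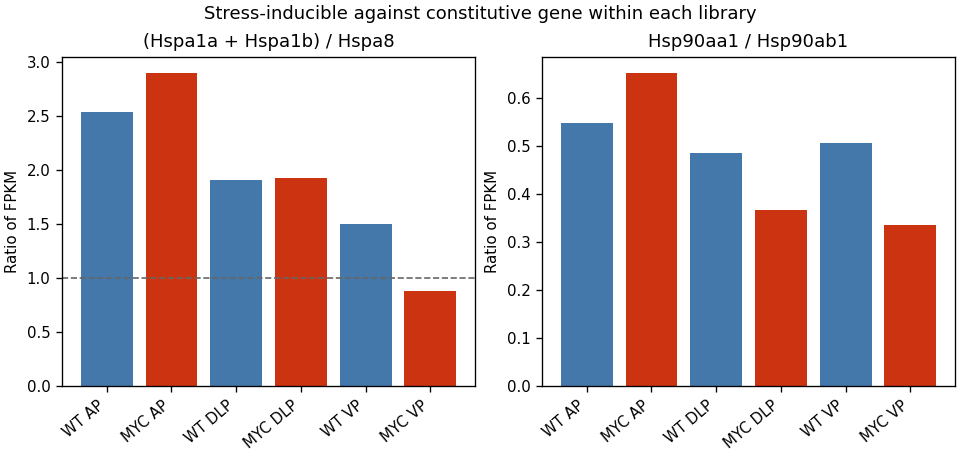
Ratio of FPKM of stress-inducible to constitutive genes within each library (vertical axes, from 0), for the HSP70s (left, Hspa1a plus Hspa1b over Hspa8, dashed line at equality) and the HSP90s (right, Hsp90aa1 over Hsp90ab1), with WT in blue and MYC in red and 1 library for each bar. The HSP70 ratio is highest in MYC AP (2.90) and lowest in MYC VP (0.878), as is the HSP90 ratio (0.653 and 0.335).

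Across the 6 libraries, Pearson's r of log2(FPKM + 1) between members was 0.95 for Dnajb1 and Hspb1, 0.84 for Hspa1a and Hsph1, and 0.80 for Hspa1a and Hspa8. It was -0.73 for Hspa1a and Hsp90ab1, and -0.76 for Hspa1a and Hsf1. The transcript of the factor was thus lowest where the inducible HSP70 transcripts were highest. These are descriptions over 6 libraries that share 2 animals and a scaling within each library, and carry no p-value.

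The genes whose pattern was most like that of the summed inducible pair, searched among the 1605 genes averaging 10 FPKM or more and varying between libraries by an SD of 0.5 or more in log2, were Hspa1l (r of 0.994), Plod1 (0.994), Col6a2 (0.994), Serpinf1 (0.993) and Lgals1 (0.993). Hspa1l, a member of the HSP70 family known from the testis, was at 156.4, 110.9 and 91.69 FPKM in the WT lobes and at 212.3, 111.2 and 51.62 FPKM in the MYC lobes. It begins 546 bases from Hspa1a, and 7.1% of its 75-base stretches also occur in Hspa1a, so that reads could be shared. Col6a2, a collagen VI chain made by stromal cells, was at 45.45, 31.38 and 21.65 FPKM in the WT lobes and at 87.08, 29.79 and 6.597 FPKM in the MYC lobes.

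Markers of other cell types moved with the lobes and genotypes as well. The 6 fibroblast markers summed to 1201, 1284 and 648.1 FPKM in WT AP, DLP and VP, and to 1365, 698.5 and 194.9 FPKM in MYC AP, DLP and VP, and none of the 6 was at 0 in all libraries. Dcn alone made up 1060 of the 1201 FPKM in WT AP, and the others did not all follow it, since in DLP Col1a1, Col1a2 and Col3a1 had log2 ratios of MYC to WT of 1.98, 0.78 and 2.03 beside -1.35 for Dcn. All 6 were lower in VP than in AP in both mice. Endothelial markers, also 6, summed to 149.2, 113.4 and 24.51 FPKM in the WT lobes and to 163.7, 125.8 and 25.98 FPKM in the MYC lobes. The 4 basal markers summed to 1337, 917.8 and 407.4 FPKM in the WT lobes and to 859.3, 1286 and 278.4 FPKM in the MYC lobes. Like the inducible pair, all 3 sums were lower in VP than in AP in both mice, and the fibroblast and basal sums were lower in MYC VP than in WT VP. Their part in the levels of the heat shock genes was not tested.

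The 7 luminal markers summed to 2214, 2192 and 4222 FPKM in the WT lobes and to 2232, 2930 and 3828 FPKM in the MYC lobes, higher in VP than in AP in both mice. The 8 smooth muscle markers summed to between 288.5 FPKM (MYC VP) and 600.7 FPKM (WT DLP). All 8 were lower in MYC than in WT in DLP and in VP, with medians of -0.81 and -0.94. In AP 7 of the 8 were higher in MYC, with a median of 0.70. The 8 hematopoietic markers summed to between 136.6 FPKM (WT VP) and 1082 FPKM (MYC DLP). The 7 that passed the filter were all higher in MYC in DLP and in VP, with medians of 1.65 and 1.16. In AP 3 of these were higher and 4 lower in MYC, with a median of -0.37. The part of these cell types in the MYC to WT ratios of the heat shock genes was not tested. Adipocyte and skeletal muscle markers reached at most 80.41 and 15.92 FPKM.

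Immediate early genes, which respond within minutes to handling of cells, were abundant in all 6 suspensions. Fos, a subunit of AP-1, was at 994.5, 1098 and 1240 FPKM in the WT lobes and at 1031, 922.5 and 860.3 FPKM in the MYC lobes. Egr1 was at 1757, 1161 and 1124 FPKM in the WT lobes and at 1893, 890.5 and 637.0 FPKM in the MYC lobes, in the lobe order of the inducible HSP70 pair, whereas Jun (802.6, 831.9 and 1308 FPKM in the WT lobes, 979.3, 961.2 and 967.6 FPKM in the MYC lobes) and Atf3 (878.2, 682.6 and 2043 FPKM in the WT lobes, 1311, 1023 and 1554 FPKM in the MYC lobes) were not in that order. Of the 24 immediate early genes listed, 0 were at least 2-fold higher in MYC in any lobe, and 1 in AP, 0 in DLP and 3 in VP were at least 2-fold lower. In VP 22 of the 24 were below 0, with a median of -0.48, beside 5737 of all 12361 genes compared. In MYC VP against MYC AP 19 were below 0 and 8 of them at least 2-fold lower, with a median of -0.82. There 6315 of the 12361 genes were below 0, and 16.1% were at least 2-fold lower. The lower level of the inducible pair in MYC VP thus came with lower immediate early transcripts. Between WT VP and WT AP 15 of the 24 were below 0, with a median of -0.29. Between WT VP and WT DLP, however, Hspa1a and Hspa1b were lower in VP (-0.46 and -0.48) while 13 of the 24 were above 0, with a median of 0.10. Egr1, Egr2, Socs3 and Ppp1r15a, 4 of the 24 (16.7%, near the 14.9% of all genes), had the order AP, DLP, VP in both mice, and the last 3 are named after their values were seen. Their part in the levels of the heat shock genes was not tested.

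The wider cytosolic chaperone network was described from a list of 42 other genes, 40 of which passed the filter. In MYC against WT, 1 was at least 2-fold higher and 0 lower in AP (median log2 ratio 0.10), 0 were higher and 0 lower in DLP (-0.06), and 1 was higher and 1 lower in VP (-0.03). Under the 3 other scalings 0 were higher in VP, and 3 were lower with size factors and 4 with equal sums of FPKM, whether or not the 20 highest genes were kept. The medians of this list lay near those of all genes compared (0.13, 0.03 and 0.04). The 12 HSP90 co-chaperones had medians of 0.13, 0.13 and 0.41 in AP, DLP and VP. Those of the 7 other J proteins were 0.17, -0.50 and -0.09. Those of the 9 exchange factors and cofactors of HSP70 were -0.01, -0.07 and -0.28. These medians are as deposited, and in VP the median over all genes compared was -0.15 and -0.18 under the equal-sum scalings.

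Fkbp5, an HSP90 co-chaperone of steroid receptors and a classical androgen-induced gene, was at 11.13, 43.77 and 64.75 FPKM in the WT lobes and at 38.04, 32.21 and 44.62 FPKM in the MYC lobes. It was 1 of the 42 past 2-fold in AP, with a log2 ratio of 1.69 there and of -0.43 and -0.53 in DLP and VP. Stip1, the protein that hands clients from HSP70 to HSP90, was at 88.28, 87.76 and 84.75 FPKM in the WT lobes and at 92.50, 95.71 and 122.1 FPKM in the MYC lobes, with log2 ratios of 0.07, 0.12 and 0.52. Cdc37, the kinase adaptor of HSP90, named after its values were seen, was at 35.34, 41.65 and 43.69 FPKM in the WT lobes and at 38.83, 53.57 and 86.36 FPKM in the MYC lobes, with a log2 ratio of 0.97 in VP. Like Hsp90ab1, Stip1 and Cdc37 had their highest value in MYC VP, by the deposited values.

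Bag3, a stress-inducible exchange factor that links HSP70 to autophagy, was at 233.6, 185.5 and 124.4 FPKM in the WT lobes and at 212.0, 99.41 and 64.25 FPKM in the MYC lobes. Its course from AP to VP was that of the inducible HSP70 pair, with log2 ratios of VP to AP of -0.90 in WT and -1.71 in MYC, but in MYC against WT it was lower in AP too (-0.14). Among the small heat shock proteins, Hspb8, the partner of Bag3, was at 76.48, 61.63 and 36.96 FPKM in the WT lobes and at 68.66, 61.63 and 77.16 FPKM in the MYC lobes, with a log2 ratio of 1.04 in VP that was 0.77 to 0.94 under the other scalings and so short of 2-fold. Hspb6, a small heat shock protein of muscle, was at 7.61, 14.82 and 35.62 FPKM in the WT lobes and at 8.93, 7.26 and 10.52 FPKM in the MYC lobes, with a log2 ratio of -1.67 in VP. Cryab, the lens and muscle crystallin, was at 38.78, 35.87 and 37.69 FPKM in the WT lobes and at 32.37, 20.78 and 18.87 FPKM in the MYC lobes, with log2 ratios of -0.25, -0.76 and -0.96. Hspb1, the most abundant of the family, was higher in MYC in VP where Hspb6 and Cryab were lower, although its ratio of 0.26 was -0.01 under equal sums without the 20 highest genes.

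The 10 cytosolic genes were last set beside the chaperones of other compartments. Of 14 chaperone genes of the endoplasmic reticulum, 2 in AP, 7 in DLP and 11 in VP were at least 2-fold lower in MYC and 0 were higher, with medians of -0.27, -0.98 and -1.36, against 0.39, 0.03 and 0.27 for the 10 cytosolic genes. Hspa5, the HSP70 of the endoplasmic reticulum, was at 1245, 1133 and 1968 FPKM in the WT lobes and at 1241, 784.4 and 888.4 FPKM in the MYC lobes, and Hsp90b1, its HSP90, at 613.1, 705.8 and 1203 FPKM in the WT lobes and at 532.7, 371.7 and 382.2 FPKM in the MYC lobes. In WT, both were highest in VP, the lobe in which the inducible cytosolic HSP70 pair was lowest. The other genes of the list did not all share this. Of the 14, 13 were higher in WT VP than in WT AP, with a median of 0.52. Against WT DLP, 8 were higher and 6 lower in WT VP, with a median of 0.04.

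Of 7 mitochondrial chaperone genes, 0 in AP, 0 in DLP and 2 in VP were at least 2-fold higher in MYC and 0 were lower, with medians of 0.31, 0.31 and 0.53. Hspd1, the mitochondrial chaperonin HSP60, was at 172.9, 151.9 and 121.8 FPKM in the WT lobes and at 254.5, 188.5 and 251.9 FPKM in the MYC lobes, with a log2 ratio of 1.04 in VP. The genes past 2-fold in VP were Hspd1 and Trap1 (1.18), and under the 3 other scalings Hspd1 was 0.77 to 0.94, short of 2-fold, while Trap1, named after its values were seen, was 1.07 with size factors and 0.95 and 0.91 with equal sums. Hspa9, the mitochondrial HSP70, was at 116.1, 101.4 and 81.13 FPKM in the WT lobes and at 89.32, 90.11 and 105.4 FPKM in the MYC lobes, with a log2 ratio of 0.37 in VP. Within the HSP70 family, MYC VP was therefore lower than WT VP for the inducible cytosolic pair and for Hspa5, near equal for Hspa8 and higher for Hspa9, by the deposited values.

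**Figure D5:**
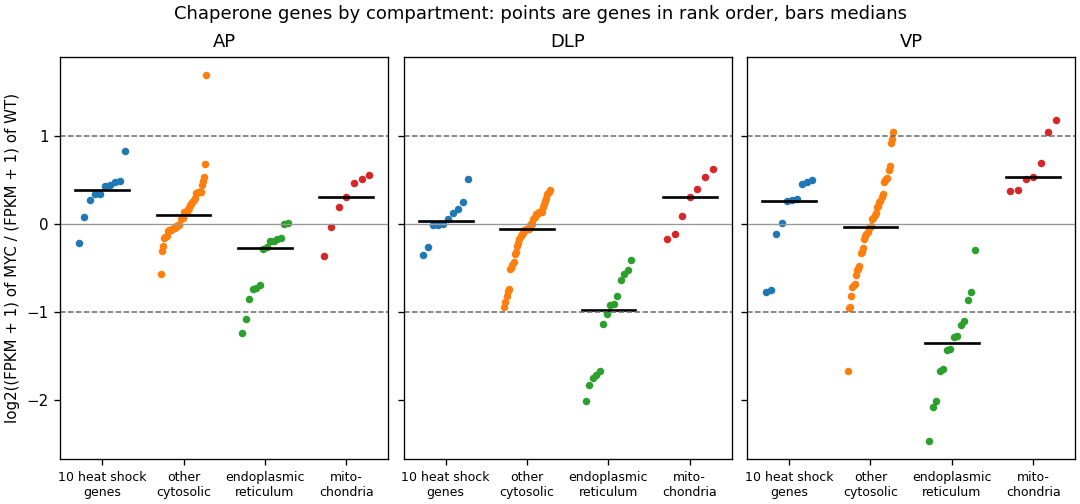
Log2 ratio of FPKM + 1 of MYC to WT (vertical axis) in AP, DLP and VP for the 10 heat shock genes, 40 other cytosolic chaperones and co-chaperones, 14 of the endoplasmic reticulum and 7 of mitochondria, with 1 point for each gene in rank order, black bars at the medians and dashed lines at 2-fold. In VP the medians are 0.27, -0.03, -1.36 and 0.53 in that order.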

How the data were processed

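The table deposited by the authors gives FPKM for the 6 libraries, made by alignment of single-end reads with STAR and quantification with Cufflinks. The submitters' processing notes also name bcl2fastq 2.18 and the build mm10, while the gene annotation is not given in the sources used here. Although the methods speak of read counts, no value was taken as a count, because the entries are fractional, and count models were left out. Genotype and lobe came from the sample titles.

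The 10 genes and all lists were chosen with earlier results of these data known. Ratios were log2((FPKM + 1)/(FPKM + 1)) over the 12361 genes averaging 1 FPKM or more. Named besides the 10 genes were other cytosolic chaperones past 2-fold in MYC in any lobe, Fkbp5, Bag3, Stip1 and Cryab, 2 genes each of the endoplasmic reticulum and mitochondria, 4 immediate early genes, and the 5 genes most like the inducible pair. Library depths (25.5 M to 50.2 M reads) were estimated from the steps between low FPKM, reads per gene from FPKM, depth and the longest transcript of GENCODE M1 (mm9), and 95% intervals of the depth-adjusted ratio of reads by the exact binomial method. They cover counting error alone.

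Coordinates and promoter windows are those of RefSeq on GRCm38.p6. Hspa8, Hsp90aa1, Hsp90ab1 and Hsf1 had no window. Alternatives were 3 other scalings (median-of-ratios size factors, and equal sums of FPKM with or without the 20 highest genes), a pseudocount of 0.1 FPKM, other filters and thresholds, and Hspa1a and Hspa1b as 1 gene. The computation was tested on simulated libraries with WT VP as template, in which 200 of 200 genes changed 4-fold were recovered. These libraries held counting error alone and no spread between mice. They therefore check the computation and say nothing of the smaller differences reported here. The software was matplotlib 3.10.9, scipy 1.17.1, pandas 2.3.3, numpy 2.4.6 and Python 3.11.15.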

Additional observations from a re-analysis of the deposited data

Results flagged for a closer look

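Members whose MYC to WT ratio was above 0 in one lobe and below 0 in another, both by at least 0.25 on the log2 scale, are given here, with 1 library per group and no test of the difference. For Hspa1a the log2 ratio was 0.48 in AP and -0.77 in VP, so that VP less AP was -1.25. For Hspa1b, 55.6% of whose 75-base stretches occur in Hspa1a, so that it is not a separate observation, it was 0.44 in AP and -0.75 in VP, with VP less AP at -1.20. For Hsph1 AP gave a log2 ratio of 0.34, DLP of -0.26 and VP of 0.28, so that DLP less AP was -0.60 and VP less DLP was 0.53. For Hsp90aa1 it was 0.34 in AP and -0.35 in DLP, with DLP less AP at -0.69. The VP ratio of Hsph1 was 0.17, 0.04 and 0.01 under the 3 other scalings, short of 0.25 in each. The AP ratios of Hsph1 and Hsp90aa1 were 0.19 and 0.18 under size factors, short of it there, while under both equal-sum scalings their AP and DLP ratios all passed it. Under these Hsp90aa1 was also opposite between AP (0.31 and 0.29) and VP (-0.35 and -0.39). Hspa1a and Hspa1b passed it in AP and VP under every scaling tried. None of these differences was tested, since each rests on 4 libraries of 2 mice.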

How the results depend on the processing

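Of the counts and medians of the 10 genes and of the other cytosolic chaperones, 41 recomputed values moved, by more than 1.5 times for a count or by 0.1 or more or across 0 for a median, and 229 did not. With size factors, the 10 genes had medians of 0.23 (AP), -0.04 (DLP) and 0.16 (VP), that of the other cytosolic chaperones in AP was -0.02, and in VP other chaperones numbered 0 higher and 3 lower. Under equal sums of FPKM, the median of the 10 genes was -0.03 in DLP and 0.03 in VP, that of the other chaperones in VP was -0.21, 1 of the 10 was lower in VP (8.8% of all genes), 4 were lower in MYC DLP than in MYC AP (5.0%), and of the other chaperones in VP 0 were higher and 4 lower. With equal sums without the 20 highest genes, the median of the 10 was -0.15 in DLP and 0.00 in VP and that of the other chaperones -0.23 and -0.25, 2 of the 10 were lower in VP (9.55% of all genes) and 4 in MYC DLP against AP (4.84%), and of the other chaperones 2 were lower in DLP, and 0 were higher and 4 lower in VP. With a pseudocount of 0.1, 1 other chaperone was lower in DLP and 2 in VP. At 1.5-fold, 1 of the 10 was higher in AP (7.53% of all genes) and 2 lower in VP (14.9%), 2 were lower in WT VP than DLP (17.9%), 4 in WT VP than AP (20.7%) and 4 in MYC DLP than AP (8.24%), and of the other chaperones 2 were higher in AP, 5 lower in DLP, and 5 higher and 7 lower in VP. At 4-fold, 0 other chaperones were higher in AP or VP or lower in VP, and of the 10, 0 were lower in WT VP than AP, in MYC VP than DLP or in MYC DLP than AP, and 2 in MYC VP than AP (4.51% of all genes). With Hspa1a and Hspa1b as 1 gene, 1 member was lower in MYC VP than DLP. For the scalings the cause was not tested. The alternatives for the MYC lobes and for the summed pair were chosen after seeing the data. With 1 library per group no replicate was left out. No fit with the lobe or the mouse as a block was made, because lobes of 1 mouse are not replicates of its genotype. Depth limits Hsf1 most, at 938 reads in WT AP.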
